A study of Danio rerio with 10 samples.

Results

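A set of 92 zebrafish (Danio rerio) transcripts was much lower in a library of 1-cell embryos than in an oocyte library, down to no read for 23 of them and still at 1 RPKM or more for another 23. RPKM is a read density corrected for gene length and library size. The genes were chosen by their measured values: at least 10 RPKM in the oocyte library, and at most 0.1 times that value in the 1-cell library. Of 32574 genes in the table, 4411 had 10 RPKM or more in the oocyte library and 99 of them, 2.24%, met both limits. Genes whose symbol begins with krt or cldn, and the gene icn, were then set aside, which removed 7 (krt4, krt5, krt8, krt18b, krt91, krt97 and icn) and left the 92. The other 4312 genes with 10 RPKM or more in the oocyte library serve as the comparison set. Background shares over all genes above an oocyte limit include the 92 themselves. Of the 92, 75 had a gene symbol and 17 had none. A further limit is that 11 of the symbols are shared with another gene of the table, and those genes are named here by Ensembl identifier. Because the oocyte and 1-cell values selected the genes, those 2 values are given as a description, and what follows turns on the later embryo libraries and on sperm.

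A zebrafish egg is loaded with maternal RNA while it grows in the ovary, inside a layer of follicle cells and close to connective tissue, blood vessels and resident macrophages. The embryo divides for several rounds with little transcription of its own and depends on that store until its genome is activated in the blastula. A transcript that is present in one stage may therefore be a stored maternal RNA, a product of the embryo's genes or RNA of other cells taken along with the sample, and in whole-sample RNA fewer cells of a type and less RNA per cell cannot be told apart.

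Libraries came from sperm, from oocytes, from embryos counted at 1, 4, 16, 64, 128, 256 and 1000 cells and from sphere-stage blastulae, 1 for each stage and 10 in all. RNA was extracted with TRIzol and sequenced as single reads of 50 bp on a HiSeq2000 after TruSeq RNA v2 library preparation. The sources used here do not give the strain, the age of the fish or how many eggs or embryos went into a library, and no stage carried a treatment or a mutation by its labels. With 1 library per stage there was no replicate check and no test was possible: every interval below is an exact 95% interval on the reads behind 2 values and covers counting error only.

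Library totals, worked back from the RPKM values, ran between 37762530 reads (1-cell) and 113972795 reads (4-cell). A count of 3 reads in a gene of 1 kilobase was worth 0.0794 RPKM at the 1-cell depth, and 0.0263 RPKM at the 4-cell depth. Among 16 egg coat and oocyte factors, 15 reached 1 RPKM in the oocyte library, and the list summed to 4523 RPKM in the 1-cell library, against 4533 RPKM in the oocyte library. Of the 16, 10 reached 10 RPKM in the oocyte library and none was among the 92. With 10 genes this cannot be told apart from the 2.24% of all such genes that met both limits. The sperm library carried markers of testis cells that are not germ cells, with insl3, a Leydig cell hormone, at 430.2 RPKM and gsdf, a Sertoli cell factor, at 312 RPKM, so its values cannot be assigned to sperm cells alone.

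The 92 transcripts had a median of 0.159 RPKM in the 1-cell library, against 21.1 RPKM in the oocyte library. The other 4312 genes had medians of 31.2 RPKM in the 1-cell library and 36.6 RPKM in the oocyte library. "Absent" held only in part: 23 of the 92 had no read in the 1-cell library, 36 had 3 reads or fewer, and 23 were still at 1 RPKM or more. The highest of these was fth1a, the ferritin heavy chain that stores iron, at 26.4 RPKM in the 1-cell library, against 329 RPKM in the oocyte library. The members nearest to the oocyte limit were GDI2 at 10.0 RPKM and ENSDARG00000095543 at 10.24 RPKM, and the nearest genes below it were illr1 at 9.99 RPKM and zgc:111983 at 9.97 RPKM. Nearest to the 1-cell limit, ENSDARG00000017771 at 9.85% and ENSDARG00000004665 at 9.30% of their oocyte values lay inside, and cox6c at 10.6% and ENSDARG00000035776 at 10.8% lay outside.

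**Figure D1:**
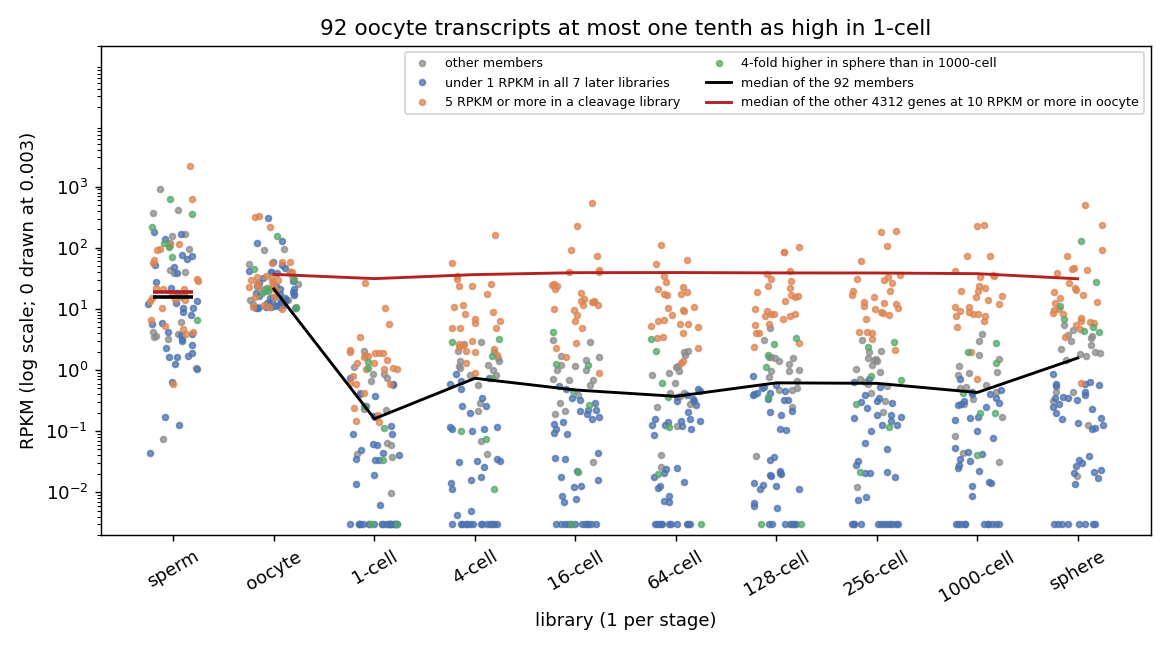
RPKM (log scale, values of 0 drawn at 0.003) of each of the 92 transcripts in the 10 libraries, with the median of the 92 in black and that of the other 4312 genes in red; sperm medians are short bars. The black median lies at 0.159 RPKM in the 1-cell library and lies at 1.57 RPKM in sphere, while the red one stays between 31.0 and 39.2 RPKM from the oocyte to sphere.

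After the 1-cell stage the set stayed low as a whole but did not stay uniform. Its median was 0.730 RPKM in the 4-cell library, 0.470 in the 16-cell, 0.370 in the 64-cell, 0.615 in the 128-cell, 0.604 in the 256-cell, 0.428 in the 1000-cell and 1.57 RPKM in the sphere library. In the 4-cell library 66 of 92 were at most 0.1 times their oocyte value, where 2.29% of all genes with 10 RPKM or more in the oocyte library were. That 2.29% stands for 101 genes, which include the 66, and 31 of the other 4312 genes met this limit. The oocyte value in these ratios, and the 1-cell value in any ratio to a later library, also chose the genes, so such ratios are given as a description. In the same library 40 of 92 were at 1 RPKM or more, against a background of 98.6%. The sphere library had 50 of 92 at most 0.1 times the oocyte value (background 5.92%) and 47 of 92 at 1 RPKM or more (background 98.6%). Of the other 4312 genes, 208 were at most 0.1 times the oocyte value in sphere. The same limit applied to 4-cell instead of 1-cell values gave 97 genes, and 66 were shared, which is 68% of those 97 and 71.7% of the 92.

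Courses after the 1-cell stage fell into 4 classes, defined after the values had been seen. In 39 genes every one of the 7 later libraries was below 1 RPKM. In 28 genes at least 1 of the 6 libraries from 4-cell to 1000-cell reached 5 RPKM. A further 7 genes were at least 4-fold higher in sphere than in the 1000-cell library on the log2(RPKM + 1) scale, and 18 genes met none of these limits. Class medians in the sphere library were 0.127, 14.2, 6.86 and 1.91 RPKM in that order.

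**Figure D2:**
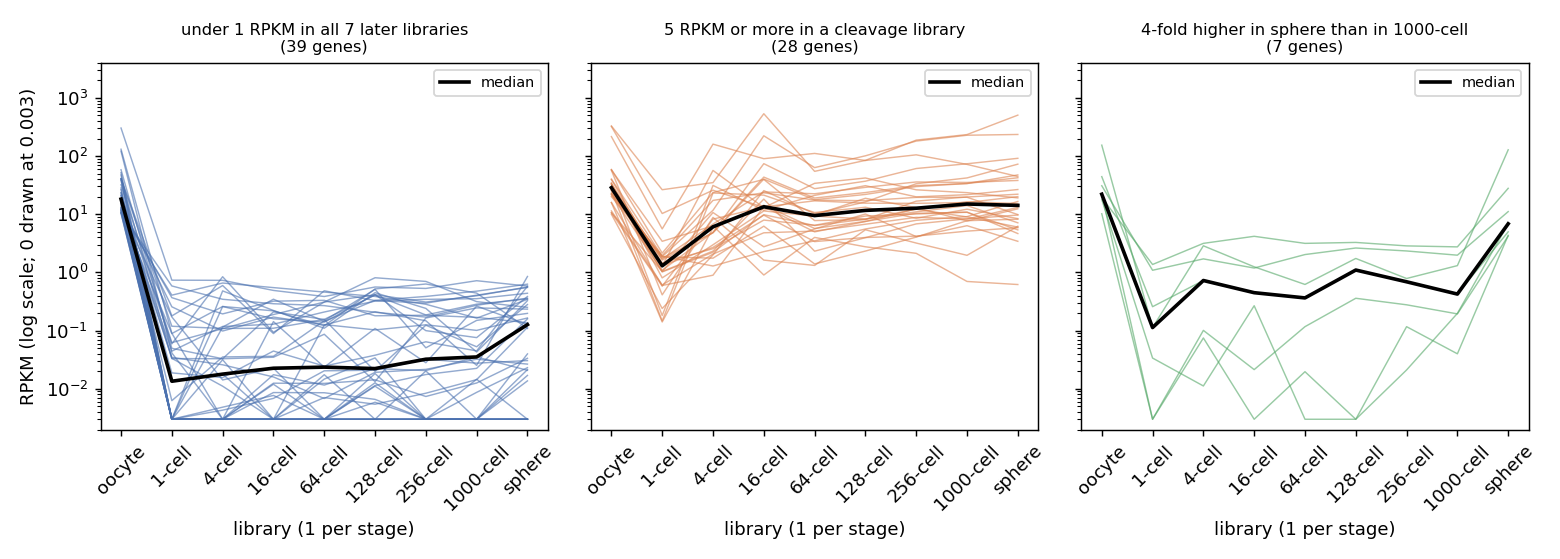
RPKM (log scale, 0 drawn at 0.003) of single genes from oocyte to sphere in 3 of the 4 classes, with the class median in black. The 39 genes of the left panel stay below 1 RPKM in all later libraries, the 28 of the middle panel have a median of 13.4 RPKM in the 16-cell library, and the 7 of the right panel have a median of 6.86 RPKM in sphere.

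Roles were given after the values had been seen, and 40 of the 92 genes had none, so the group sizes depend on that choice. The largest group so formed was that of macrophage and leukocyte genes, with 14 genes. Of these, 10 stayed below 1 RPKM in all later libraries, where 39 of all 92 did. marco, a scavenger receptor of macrophages, had 4.24 RPKM in sperm and 13 RPKM in the oocyte, no read in the 1-cell, 4-cell, 64-cell, 256-cell and 1000-cell libraries, and 0.0120 RPKM in the 16-cell, 0.0183 in the 128-cell and 0.0214 RPKM in the sphere library. Those 3 embryo values rest on 1, 2 and 2 reads, against 829 reads in the oocyte library. The transcript was thus seen in the gamete libraries and by 1 or 2 reads in the 3 embryo libraries that had any.

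c1qb, a chain of the complement protein C1q, had 10.5 RPKM in sperm and 26.4 RPKM in the oocyte, no read in the 1-cell, 4-cell, 16-cell, 256-cell and 1000-cell libraries, and 0.0147 RPKM in the 64-cell, 0.0340 in the 128-cell and 0.0398 RPKM in the sphere library. mrc1b, of the mannose receptor family, had 3.72 RPKM in sperm, 14.0 in the oocyte, 0.0347 in the 1-cell, 0.0259 in the 4-cell, 0.0160 in the 16-cell, 0.00682 in the 64-cell, 0.0192 in the 128-cell, 0.0216 in the 256-cell, 0.0323 in the 1000-cell and 0.0266 RPKM in the sphere library. Both genes were at or near 0 in all 8 embryo libraries, with at most 3 reads for c1qb and at most 18 for mrc1b. The chemokine gene ccl34b.8 had 0.0497 RPKM in the 1-cell library, against 58.1 RPKM in the oocyte library, and between 0.02 and 0.281 RPKM in the 7 later libraries.

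The granulin genes grna.1 and grna, whose products are secreted growth factors found in macrophages, had 40.1 and 21.1 RPKM in the oocyte library. grna.1 had no read in the 1-cell library (817-fold lower with 3 reads put in its place) and at most 3 reads in any later library. grna had 1 read in the 1-cell library and at most 0.512 RPKM later. The chemokine receptor gene ccr12b.2 (251-fold lower in the 1-cell library, computed in the same way) and the amino acid transporter gene SLC7A7 (355-fold lower) likewise had no 1-cell read and at most 0.0137 and 0.0353 RPKM later. srgn, the granule proteoglycan serglycin, had 1 read in the 1-cell library, against 1417 reads in the oocyte library.

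Other genes of the group departed from that course. LCP1, the actin-bundling L-plastin of leukocytes, was at 15.8 RPKM in the oocyte and between 0.00983 and 0.0423 RPKM from the 1-cell to the 1000-cell library, and it had 1.94 RPKM in sphere, against 0.0313 RPKM in the 1000-cell library (61.9-fold, 28.2 to 169.5). mafbb, a MAF family transcription factor, never dropped out, with 0.562 RPKM in the 1-cell library, against 14.2 RPKM in the oocyte library, and 0.443 to 1.16 RPKM afterwards. f13a1b, a coagulation factor XIII subunit, had 1.40 RPKM in the 4-cell library and 2.04 to 3.81 RPKM in the libraries after it. rac2, a small GTPase studied in leukocytes, had 1.70 RPKM in the 1-cell library, against 22.6 RPKM in the oocyte library, and was higher in later libraries, with 6.78 RPKM in the 4-cell library and 38.1 RPKM in sphere.

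**Figure D3:**
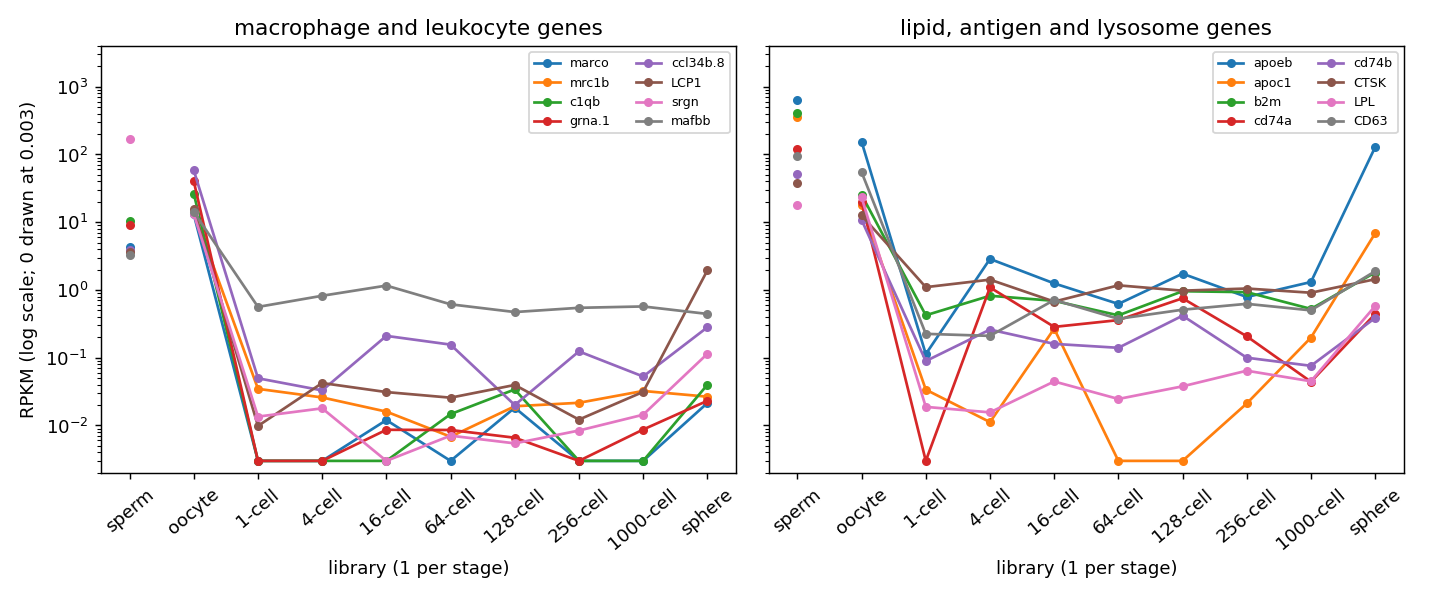
RPKM (log scale, 0 drawn at 0.003) of 8 macrophage and leukocyte genes (left) and 8 lipid, antigen presentation and lysosome genes (right), 1 point per library, with sperm unconnected. In the left panel marco, c1qb and grna.1 lie at or near 0 in all embryo libraries, and in the right panel apoeb and apoc1 reach 128 and 6.86 RPKM in sphere.

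A wider list of macrophage and white blood cell markers had 11 gene identifiers in the table, and 9 of them reached 1 RPKM in the oocyte library. Of the 9, 8 were at most 0.1 times as high in the 1-cell library (background 6.97% of all genes with 1 RPKM or more in the oocyte library). This count mostly restates the rule, since 7 of the 8 were among the 92 (apoeb, apoc1, marco, cd74a, cd74b, CTSK and LCP1), and the eighth was ptprc, which encodes the leukocyte antigen CD45. The ninth was CORO1A, an actin regulator of leukocytes, at 5.30 RPKM in the 1-cell library, against 22.7 RPKM in the oocyte library. The list summed to 6.78 RPKM in the 1-cell library, against 268 RPKM in the oocyte library. None of its genes was listed at 0 in the oocyte library, and ptprc was at 0.00585 RPKM in the 1-cell library, against 1.22 RPKM in the oocyte library.

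Markers of other cells of the ovary behaved in different ways. Of 12 genes for stroma, vessels and connective tissue, 4 reached 1 RPKM in the oocyte library and those 4 were at most 0.1 times as high in the 1-cell library (background 6.97%). Of the 4, 1 was a member, ENSDARG00000033466, with 22.1 RPKM in the oocyte library. Its symbol TAGLN is shared with ENSDARG00000045408, also on the list, which had 0.214 RPKM there. The rest of the 4 included the collagen genes col1a1a (0.0836 RPKM in the 1-cell library, against 8.44 RPKM in the oocyte library) and COL1A2 (no read, against 8.23 RPKM). The list summed to 0.286 RPKM in the 1-cell library, against 48.0 RPKM in the oocyte library. The smooth muscle actin acta2 and the vessel cadherin cdh5, defining markers of that list, were at 0.289 and 0.0543 RPKM in the oocyte library. Follicle and steroidogenic markers were mostly missing from the oocyte library itself: gsdf was at 0.0272, amh at 0.0113 and STAR at 0.0664 RPKM, and FSHR was listed at 0. The 2 of 11 that reached 1 RPKM, CYP17A1 and the CYP11A1 gene ENSDARG00000002347, were not lower in the 1-cell library, so that the list summed to 259.7 RPKM there, against 232 RPKM in the oocyte library. Symbol matching found 3 of 10 red blood cell, 5 of 12 muscle and 13 of 14 liver or yolk protein markers. None of these matched genes reached 1 RPKM in the oocyte library. The globin gene hbae3, which is not on the red blood cell list, had 1.59 RPKM in the oocyte library and no read in the 1-cell library. Lists of other kinds also held genes at 1 RPKM or more in the oocyte library and at most 0.1 times as high in the 1-cell library (background 6.97%). They were 6 of 8 AP-1, KLF and immediate early genes, 2 of 12 redox genes and 1 of 11 nuclear oxidative phosphorylation genes. Among cell type lists they were 3 of 8 skin and epithelium, 2 of 3 ionocyte and mucous cell and 1 of 3 testis somatic genes. The part of any of these cell types in the differences between the oocyte and 1-cell libraries was not tested.

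**Figure D4:**
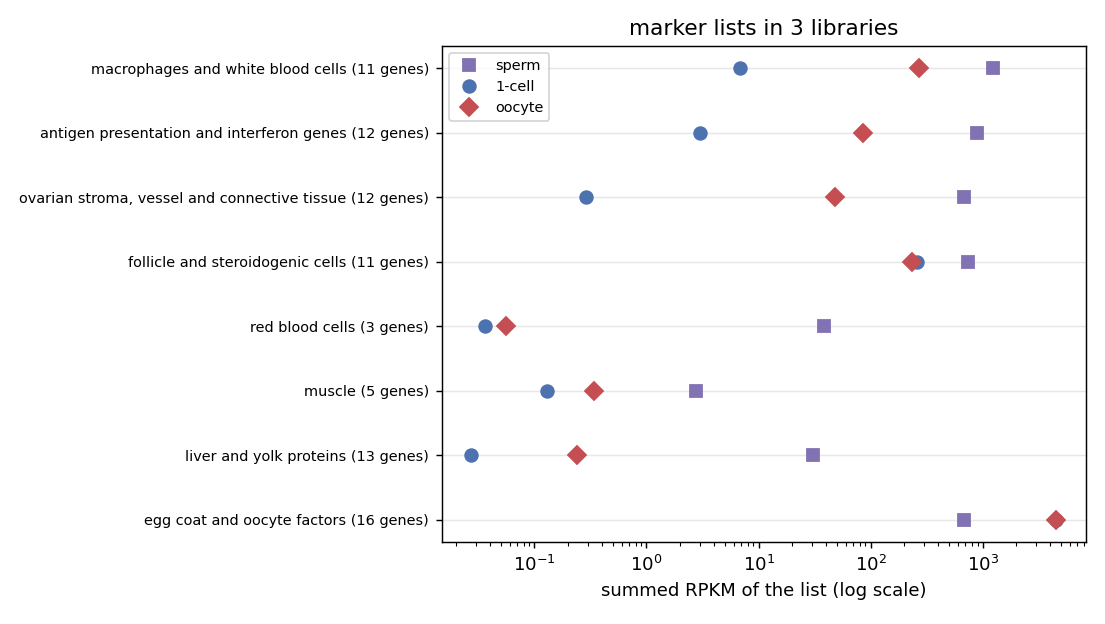
Summed RPKM (log scale) of 8 marker lists in the sperm, 1-cell and oocyte libraries, 1 point per library. The macrophage list sums to 6.78 (1-cell) and 268 RPKM (oocyte), and the egg coat list, whose 1-cell and oocyte points overlap, to 4523 and 4533 RPKM.

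Antigen presentation was represented by 3 genes. b2m, the light chain of class I molecules, had 413 RPKM in sperm, 25.4 in the oocyte, 0.423 in the 1-cell, 0.821 in the 4-cell, 0.691 in the 16-cell, 0.422 in the 64-cell, 0.958 in the 128-cell, 0.928 in the 256-cell, 0.525 in the 1000-cell and 1.81 RPKM in the sphere library. cd74a, one of 2 invariant chain genes of class II molecules in the set, had 120.3 RPKM in sperm, 19.9 in the oocyte, no read in the 1-cell, 1.09 in the 4-cell, 0.285 in the 16-cell, 0.359 in the 64-cell, 0.754 in the 128-cell, 0.207 in the 256-cell, 0.0442 in the 1000-cell and 0.441 RPKM in the sphere library. cd74b peaked at 0.417 RPKM among the embryo libraries, in the 128-cell library, against 10.8 RPKM in the oocyte. All 3 were high in sperm, intermediate in the oocyte and at 1.81 RPKM or less in every embryo library. In the wider list of antigen presentation and interferon genes, 7 of 8 genes at 1 RPKM or more in the oocyte library were at most 0.1 times as high in the 1-cell library (background 6.97%). The 7 include these 3 members, which the rule selected. The exception was mhc1zba at 2.03 RPKM in the 1-cell library, against 12 RPKM in the oocyte library.

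The members with a role in the lysosome had reads left in the 1-cell library. The cathepsin gene CTSK had 1.1 RPKM in the 1-cell library, against 12.6 RPKM in the oocyte library, and 0.673 to 1.44 RPKM after that. CD63, a tetraspanin of late endosomes, had 0.225 RPKM in the 1-cell library, against 54.8 RPKM in the oocyte library, and 1.89 RPKM in sphere, against 0.5 RPKM in the 1000-cell library (3.77-fold, 2.73 to 5.32). LIPA, which encodes lysosomal acid lipase, took another course, with 0.807 RPKM in the 1-cell, 2.99 in the 4-cell and 11.4 in the 16-cell library, beside 33.9 RPKM in the oocyte. In the wider list of tetraspanin, lysosome and cathepsin genes, 14 reached 1 RPKM in the oocyte library and 3 of them were at most 0.1 times as high in the 1-cell library (background 6.97%). These were the members CD63 and CTSK, which the rule selected, and CTSH, which had no 1-cell read and 7.05 RPKM in the oocyte library. The abundant cathepsin gene ctsla had 1631 RPKM in the 1-cell library, against 1627 RPKM in the oocyte library, and NPC2, a lysosomal cholesterol carrier, had 618 RPKM, against 489 RPKM.

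Genes of lipid transport and lipid metabolism numbered 8 and were split over all the classes. apoeb, which encodes apolipoprotein E, had 638 RPKM in sperm, 154 in the oocyte, 0.113 in the 1-cell, 2.87 in the 4-cell, 1.25 in the 16-cell, 0.622 in the 64-cell, 1.74 in the 128-cell, 0.787 in the 256-cell, 1.31 in the 1000-cell and 128 RPKM in the sphere library. It was thus high at both ends of the series and low through cleavage. apoc1, another apolipoprotein gene and the direct neighbour of apoeb in the RefSeq gene order, had 359 RPKM in sperm, 17.9 in the oocyte, 0.0338 in the 1-cell, 0.0112 in the 4-cell, 0.268 in the 16-cell, no read in the 64-cell and 128-cell, 0.0211 in the 256-cell, 0.198 in the 1000-cell and 6.86 RPKM in the sphere library.

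Lipoprotein lipase (LPL) had 0.0188 RPKM in the 1-cell library, against 23.2 RPKM in the oocyte library, and stayed at 0.0156 to 0.0643 RPKM until sphere, where it had 0.579 RPKM, against 0.0449 RPKM in the 1000-cell library (12.9-fold, 6.59 to 28.8). g0s2, an inhibitor of lipolysis, had 1 read in the 1-cell library, against 1800 reads in the oocyte library, and at most 0.246 RPKM later. The prostaglandin D synthase genes ptgdsb.1 and ptgdsb.2, which lie side by side in the RefSeq order, were higher again in the 4-cell library. ptgdsb.1 had 8.82 RPKM there, against 0.412 RPKM in the 1-cell library (21.4-fold, 13.1 to 37.6), and ptgdsb.2 had 2.08 RPKM there and no read in the 1-cell library (at least 32.6-fold higher).

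Galectins are lectins that bind galactose-containing sugars, and 2 of their genes were among the 92. lgals9l1 had 38.2 RPKM in the oocyte and no read in the 1-cell library (at least 1072-fold lower), and at most 6 reads in any later library. lgals2a had 0.119 RPKM in the 1-cell library, against 40.4 RPKM in the oocyte library, and the galectin-binding gene lgals3bp.1 had 0.257 RPKM, against 14.9 RPKM. Neither went above 0.408 RPKM later. Of 14 genes whose symbol begins with lgals and is not that of a binding protein, 7 reached 1 RPKM in the oocyte library. Including the members lgals9l1 and lgals2a, which the rule selected, 4 of the 7 were at most 0.1 times as high in the 1-cell library (background 6.97%). lgals3a was not among them, with 25.2 RPKM in the 1-cell library, against 34.5 RPKM in the oocyte library, and 28.5 to 53.6 RPKM in the 7 later libraries.

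Annexins bind membranes in the presence of calcium, and S100 proteins are calcium-binding partners of some of them. ANXA2 had 38.0 RPKM in sperm, 51.8 in the oocyte, no read in the 1-cell, 0.482 in the 4-cell, 0.222 in the 16-cell, 0.110 in the 64-cell, 0.449 in the 128-cell, 0.241 in the 256-cell, 0.0429 in the 1000-cell and 0.327 RPKM in the sphere library. s100a10b, whose mammalian counterpart forms a complex with annexin A2, had 121 RPKM in sperm, 44.3 in the oocyte, 0.258 in the 1-cell, 0.727 in the 4-cell, 0.449 in the 16-cell, 0.365 in the 64-cell, 1.1 in the 128-cell, 0.691 in the 256-cell, 0.425 in the 1000-cell and 4.99 RPKM in the sphere library. Both genes shared the low cleavage values, and only s100a10b of this pair reached 1 RPKM in sphere. Of 24 genes of the table whose symbol begins with anxa or s100, 15 reached 1 RPKM in the oocyte library and 4 of them were at most 0.1 times as high in the 1-cell library (background 6.97%). These were the members ANXA2, ANXA1 and s100a10b, which the rule selected, and ANXA4, which had 9.1 RPKM in the oocyte library. The others included S100A1, with 485 RPKM in the 1-cell library, against 429 RPKM in the oocyte library.

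The actin-severing gene scinlb had 0.0581 RPKM in the 1-cell library, against 21.0 RPKM in the oocyte library, then 2.82 RPKM at 4-cell and 0.189 RPKM at 16-cell. ARPC1B, a subunit of the Arp2/3 actin nucleator, stayed at 0.108 to 0.564 RPKM after the 1-cell stage. The transgelin gene ENSDARG00000033466 (symbol TAGLN, shared with a second gene) had 22.1 RPKM in the oocyte and no read in the 1-cell library. Most other actin genes did not meet the limit. Of 15 listed cytoskeleton genes at 1 RPKM or more in the oocyte library, 2 were at most 0.1 times as high in the 1-cell library (background 6.97%). Several others were also lower there: actb1 had 33.2 RPKM, against 264 RPKM in the oocyte library, and actb2 had 55.7 RPKM, against 394 RPKM. By contrast tpm1, tpm3 and myl6 were higher in the 1-cell library. The whole list summed to 1084 RPKM in the 1-cell library, against 2276 RPKM in the oocyte library.

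The 28 transcripts that reached 5 RPKM during cleavage included enzymes, trafficking proteins and 8 that already had at least 50% of the oocyte value in the 4-cell library. POLR1D, a subunit shared by RNA polymerases I and III, had 21.4 RPKM in sperm, 216 in the oocyte, 5.6 in the 1-cell, 160.3 in the 4-cell, 90.1 in the 16-cell, 111 in the 64-cell, 84.0 in the 128-cell, 105 in the 256-cell, 71.9 in the 1000-cell and 44.5 RPKM in the sphere library. RFTN2, a raftlin of lipid rafts, had 4.74 RPKM in sperm, 39.4 in the oocyte, 1.29 in the 1-cell, 56.6 in the 4-cell, 13 in the 16-cell, 34 in the 64-cell, 42.0 in the 128-cell, 26.3 in the 256-cell, 23.5 in the 1000-cell and 19.1 RPKM in the sphere library. In these genes the 1-cell value, whose low level the rule required, was the lowest of the series from oocyte to sphere. RPKM shows only what was sequenced, so whether the RNA itself was lost or returned between stages was not tested. The 4-cell value was 28.6-fold (24.3 to 34) the 1-cell value for POLR1D, 44.0-fold (37.4 to 52.1) for RFTN2 and 172-fold (87.2 to 399) for odf3l2a, an outer dense fibre gene with 34.4 RPKM in the oocyte. Over all genes the median log2 difference of 4-cell minus 1-cell was 0.51, and -0.13 with median-of-ratios scaling.

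A second course within the 28 had its largest step between the 4-cell and 16-cell libraries. fth1a had 622 RPKM in sperm, 329 in the oocyte, 26.4 in the 1-cell, 35.0 in the 4-cell, 534 in the 16-cell, 54.6 in the 64-cell, 84.3 in the 128-cell, 188 in the 256-cell, 234 in the 1000-cell and 505 RPKM in the sphere library. The aldolase gene ENSDARG00000011665 (symbol ALDOA, shared) had 94.3 RPKM in sperm, 26.0 in the oocyte, 1.09 in the 1-cell, 4.89 in the 4-cell, 74.0 in the 16-cell, 27.5 in the 64-cell, 37.0 in the 128-cell, 61.1 in the 256-cell, 73.7 in the 1000-cell and 91.5 RPKM in the sphere library. GDI2, a recycling factor for Rab GTPases, had 111 RPKM in sperm, 10.0 in the oocyte, 0.240 in the 1-cell, 2 in the 4-cell, 25.5 in the 16-cell, 10.18 in the 64-cell, 16.3 in the 128-cell, 33.5 in the 256-cell, 42.1 in the 1000-cell and 72.6 RPKM in the sphere library. The 16-cell value was 15.3-fold (14.8 to 15.7) the 4-cell value for fth1a, 15.1-fold (14.2 to 16.1) for ENSDARG00000011665 and 12.8-fold (11.7 to 14.0) for GDI2, and all 3 were lower again in the 64-cell library. Over all genes the median log2 difference of 16-cell minus 4-cell was 0.74, and -0.09 with median-of-ratios scaling, under which 29 of the 92 were higher and 54 lower in the 16-cell library, in place of 48 higher and 35 lower.

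Of the 4 glycolytic genes, 3 were in this class and GAPDHS was not: it had 2.01 RPKM in the 1-cell library, against 94.6 RPKM in the oocyte library, and 1.51 to 2.90 RPKM in the 7 later libraries. PGK2, a phosphoglycerate kinase, had 23.6 RPKM in the 4-cell library, against 2.15 RPKM in the 1-cell library (11-fold, 9.48 to 12.7). An enolase gene, ENSDARG00000022456 (symbol ENO1, shared), had 9.66 RPKM in the 16-cell library and 5.87 RPKM in sphere, beside 32.9 RPKM in the oocyte. Among redox genes, the peroxiredoxin gene PRDX4 reached 8.21 RPKM in sphere, whereas selenop, a secreted selenium carrier, stayed between 0.0891 and 0.596 RPKM after the 1-cell stage.

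Between the 1000-cell and sphere libraries 60 of 92 genes were higher in sphere and 25 lower, which is 65.2% higher, where 39.0% of the other 4312 genes were higher. Sphere was the highest of the 7 later libraries for 42 of the 92 (45.7%), and for 11.2% of the other 4312 genes. Both comparisons had no limit on level and set unlike levels side by side. The median in the 1000-cell library was 0.428 RPKM for the 92 and 37.6 RPKM for the other 4312 genes. Some of the 92 thus counted as higher on few reads, such as marco with 2 reads in sphere and none in the 1000-cell library. Of the 47 members with 1 RPKM or more in either library, 7 were at least 4-fold higher in sphere on the log2(RPKM + 1) scale (14.9%, background 4.06% of 13983 genes, and 0.345% of those with 10 RPKM or more in the oocyte library) and 0 were lower by as much (background 0.415%, and 0.735% of those with 10 RPKM or more in the oocyte library). The 0.345% stands for 15 of 4354 genes, and those 15 include the 7. The median log2 difference was 0.47 for these 47 and -0.11 for the other genes with 10 RPKM or more in the oocyte library. All 47 were at 1 RPKM or more in sphere, and 35 of the 92 were in the 1000-cell library. Some of the 47 thus entered only through their sphere value. That favours higher over lower calls, so these shares and medians are a description.

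The 7 genes were apoeb (97.3-fold, 84.6 to 113), apoc1 (34.7-fold, 19.2 to 70.1), s100a10b (11.7-fold, 8.15 to 17.5), ENSDARG00000036107 with the shared symbol TXNIP, the transgelin gene ENSDARG00000033466, and the genes ENSDARG00000039515 and ENSDARG00000095543, which have no symbol. The TXNIP gene, a thioredoxin-binding protein, had 11.1 RPKM in sphere, against 1.98 RPKM in the 1000-cell library (5.58-fold, 5.01 to 6.22), and ENSDARG00000033466 had 4.22 RPKM, against 0.194 RPKM (21.8-fold, 13.6 to 37.0). With median-of-ratios scaling s100a10b, ENSDARG00000036107 and ENSDARG00000033466 were below the 4-fold limit, with log2 differences of 1.86, 1.93 and 1.87. In sphere apoeb stood near its oocyte level, and the other 6 lay between 4.22 and 27.9 RPKM. ANXA1 was just short of the limit, with 5.34 RPKM in sphere, against 0.814 RPKM in the 1000-cell library (6.56-fold, 5.28 to 8.21). A marker list of the enveloping layer, the surface epithelium that forms in the blastula, summed to 222 RPKM in sphere, against 14.5 RPKM in the 1000-cell library. The list leaves out keratins and claudins, which the rule also set aside. Of its 8 genes in the table, 0 reached 10 RPKM in the oocyte library, so none could be among the 92. The 2 that reached 1 RPKM there, CAPN9 and AGR2, were at most 0.1 times as high in the 1-cell library (background 6.97%). The keratin genes that met both limits and were set aside were not alike. In sphere krt4 had 61.5 RPKM, against 0.234 RPKM in the 1000-cell library. There krt8 had 53.4 RPKM, against 2.69 RPKM, krt97 had 8.01 RPKM, against 0.571 RPKM, and krt5 had 12.3 RPKM, against 3.41 RPKM. By contrast krt91 had 2.81 RPKM in either library, and krt18b had 0.211 RPKM in sphere, against 0.179 RPKM. The part of that layer in the sphere values was not tested.

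Almost all of the 92 were also found in the sperm library. At 1 RPKM or more were 86 of 92 (93.5%, 86.3 to 97.6), near the background of 95.6% for genes with 10 RPKM or more in the oocyte library and above the 50.5% of all genes. The median was 15.4 RPKM in sperm, against 21.1 RPKM in the oocyte library. By single genes 35 were higher and 57 lower in sperm, with ratios between 0.00266 and 20.1 and a median ratio of 0.562. At least 4-fold higher in sperm on the log2(RPKM + 1) scale were 17 of 92 (18.5%), where 6.23% of all 4411 genes with 10 RPKM or more in the oocyte library and 31.5% of 17364 genes in all were. At least 4-fold lower were 27 of 92 (29.3%), where 33% of those 4411 and 9.08% of all genes were. The median log2 difference was -0.74 for the 92 and -1.16 for the other 4312 genes. The oocyte value also chose the genes, so this comparison is a description. It depends on the scaling. With median-of-ratios factors 8 of 92 were higher (8.7%, against 1.07% of the 4411 and 19.6% of all genes) and 42 lower (45.7%, against 56% of the 4411 and 17.7% of all genes), and the median log2 difference of all genes moved to 0.51, against 1.22 as deposited.

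The highest ratios were those of apoc1, with 359 RPKM in sperm, against 17.9 RPKM in the oocyte library (20.1-fold, 18.7 to 21.6), b2m (16.3-fold, 15.5 to 17.1), and srgn, with 167 RPKM in sperm, against 13 RPKM in the oocyte library (12.6-fold, 11.9 to 13.3), together with the genes ENSDARG00000041505 (symbol ITM2B, shared, 16.9-fold, 15.8 to 18.1) and ENSDARG00000095908 (symbol SAT1, shared, 14.4-fold, 11.7 to 17.9). cd74a (6.04-fold, 5.69 to 6.41), cd74b (4.77-fold, 4.42 to 5.15) and apoeb (4.15-fold, 4.08 to 4.22) were above the 4-fold limit as deposited and below it with median-of-ratios scaling. The most abundant of the set in sperm were the neighbouring genes si:dkey-238c7.12 with 2166 RPKM, against 322 RPKM in the oocyte library, and si:dkey-238c7.13 with 918 RPKM, against 90.6 RPKM in the oocyte library. The macrophage marker list summed to 1245 RPKM in sperm, against 268 RPKM in the oocyte library, and without apoeb and apoc1 to 248 RPKM, against 96.7 RPKM. Of these other 9 genes, 5 were higher in sperm and 4 lower, which were marco, LCP1 with 3.59 RPKM in sperm, against 15.8 RPKM in the oocyte library, ptprc with 0.58 RPKM, against 1.22 RPKM, and CORO1A with 21.1 RPKM, against 22.7 RPKM. The antigen presentation list summed to 882 RPKM in sperm, against 85.0 RPKM in the oocyte library. The part of macrophages or of testis cells in these values was not tested.

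Lower in sperm were ccl34b.8 with 3.93 RPKM, against 58.1 RPKM in the oocyte library (14.8-fold lower, 11.9 to 18.6), lgals9l1 with 1.62 RPKM, against 38.2 RPKM (23.6-fold lower, 20 to 28.1), and the connexin gene gja13.2 with 0.645 RPKM, against 16.8 RPKM (26.1-fold lower, 18.7 to 37.4). icn2, an S100 family gene related to icn, had 0.169 RPKM in sperm from 3 reads, against 21.0 RPKM in the oocyte library (124-fold lower, 42.2 to 603). scpp7, a secretory calcium-binding phosphoprotein gene, had 2 reads in sperm and 398 in the oocyte (144-fold lower, 39.6 to 1195). Of the 14 macrophage and leukocyte genes, 1 was higher in sperm than in the oocyte library, srgn, and 13 were lower, among them marco (3.06-fold lower, 2.62 to 3.60), mrc1b (3.76-fold lower, 3.50 to 4.04) and c1qb (2.51-fold lower, 2.24 to 2.82). Of all 92, 57 were lower. That group was formed after the values were seen. It leaves out apoeb, apoc1, cd74a, cd74b and CTSK, which are on the macrophage marker list but were given other roles. Those genes were all higher in sperm. All 3 antigen presentation genes were higher in sperm. By course, 18 of the 39 genes that stayed below 1 RPKM to sphere (46.2%) were at least 4-fold lower in sperm. So were 6 of the 28 that reached 5 RPKM in cleavage (21.4%), 3 of the 18 that met no limit (16.7%) and 0 of the 7 higher in sphere. The share was 29.3% of the 92 and 33% of the 4411 genes with 10 RPKM or more in the oocyte library. With median-of-ratios scaling those last 2 shares were 45.7% and 56%.

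**Figure D5:**
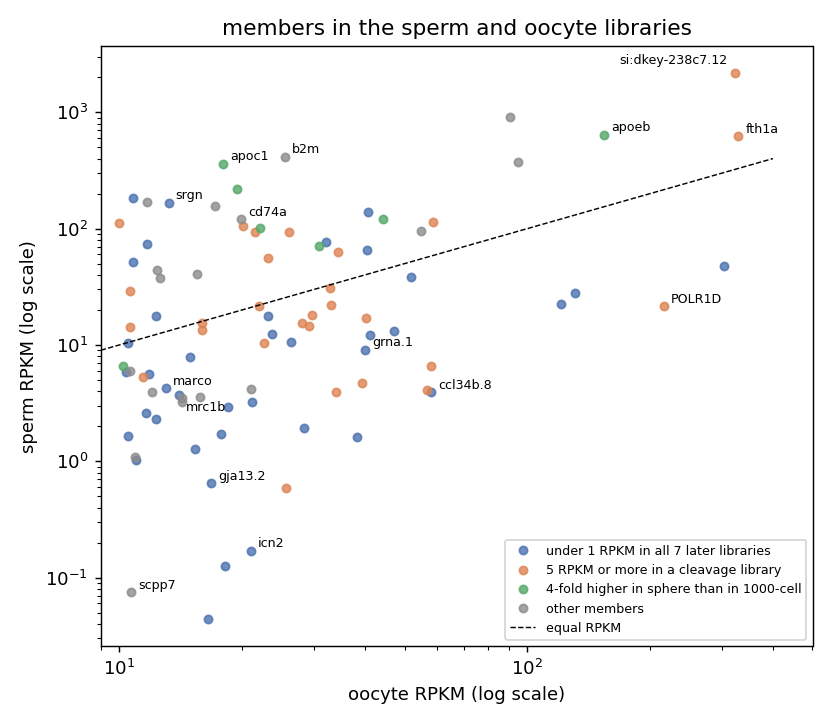
Sperm RPKM (vertical) against oocyte RPKM (horizontal) of the 92 transcripts, both on log scales, 1 point per gene, coloured by course after the 1-cell stage, with a dashed line at equal RPKM. Above the line lie 35 genes, with apoc1 at 359 RPKM in sperm and 17.9 RPKM in the oocyte, and below it lie 57.

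Among the 40 members to which no role was given, several were abundant in the oocyte library and had few or no reads in embryos. si:dkey-6n3.3 had 121 RPKM in the oocyte library, 1 read in the 1-cell library and no read in the 7 later ones, and si:dkey-119g10.4 had 131 RPKM in the oocyte library and at most 0.264 RPKM later. ENSDARG00000090113, without a symbol, had 0.737 RPKM in the 1-cell library, against 303 RPKM in the oocyte library, and 0.386 to 0.732 RPKM in the 7 later libraries. With no read in any of the 8 embryo libraries were c1ql1, a C1q-like gene, and gja13.2, which is not one of the 40 and was grouped with channels and transporters. ENSDARG00000004665, also without a symbol, had 1.87 RPKM in the 1-cell, 11.7 in the 4-cell, 223 in the 16-cell library and 235 in sphere, beside 20.1 RPKM in the oocyte, the second highest member in sphere after fth1a.

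Some members lay near each other in the genome, and how often other genes do so was not counted. Of the 54 matched by symbol to the RefSeq gene order of assembly GRCz12tu, 6 pairs were within 10 steps: apoeb and apoc1, ptgdsb.1 and ptgdsb.2 with 0 genes between them, CTSK and ctss2.2, and si:dkey-238c7.12 and si:dkey-238c7.13 with 1, s100a10b and icn2 with 2, and lgals2a and rac2 with 6. Near-identical gene copies can share reads, and likeness of sequence was not examined here. Single values of ptgdsb.1, ptgdsb.2, grna, grna.1 and the si:dkey-238c7 genes are therefore uncertain. Gene length differed from the comparison set, with a median of 1423 bases for the 92 and 2031 bases for the other 4312 genes.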

How the data were processed

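RNA of 10 stages, 1 library each, was sequenced. The authors deposited 1 table of RPKM values. TopHat2 2.0.9 and build Zv9 are named in the submitters' processing notes. How reads were counted, on which annotation and with which strand setting is not given in the sources used here, so overlapping antisense genes cannot be told apart. All 10 value columns were used (0 left out).

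Whole reads were worked back from ratios of RPKM values within a gene, for 26493 of 26495 genes above 0 in at least 2 libraries, with a tolerance of 0.02 reads. This was tested on simulated data of 1500 genes (99.0% of 1464 genes with at least 2 values had every read count recovered). Folds are RPKM ratios with exact 95% Clopper-Pearson intervals on these reads. Where one library had no read, the fold was computed with 3 reads in its place. It is a rough value that can lie above the lower 95% limit. The 4-fold limit is a difference of 2 or more in log2(RPKM + 1), with a pseudocount of 1 that understates changes of low genes, among genes that reached 1 RPKM in one of the libraries compared. No p-value was computed. Python 3.11.15, numpy 2.4.6, pandas 2.3.3, scipy 1.17.1 and matplotlib 3.10.9 were used.

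Members and marker lists were chosen with earlier results of these data known, and the role groups, courses and order patterns after the values were seen. Lists were matched by symbol. Named by rule were the members with a symbol of their own highest in oocyte (20), over the cleavage libraries (10), in sphere (10) and in sperm (10), list genes and the genes nearest each limit. Other names were chosen after their values were seen. Alternatives were other limits, scaling by median-of-ratios factors over 16807 genes, pseudocounts and filters.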

Additional observations from a re-analysis of the deposited data

How the results depend on the processing

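No paired analysis was possible because each stage has 1 library. The number of genes meeting both limits was 92 and changed to 192 with an oocyte minimum of 5 RPKM and to 49 with 20 RPKM. Alternatives chosen after seeing the data asked for at most 0.1 times the oocyte value in every library from 1-cell to 1000-cell, which left 56, or to sphere, which left 46, and 91 remained without icn2. The share at 1 RPKM or more in the 4-cell library was 43.5% and became 30.7% and 55.1% with oocyte minimums of 5 and 20 RPKM, 58.6% with a 1-cell limit of 0.2, 54.3% at a level of 0.5 RPKM and 16.3% at 5 RPKM. The share at 1 RPKM or more in sperm was 93.5%, against 82.8% with median-of-ratios scaling and 69.6% at a level of 5 RPKM. The share higher in sphere than in the 1000-cell library was 14.9% and fell to 4.26% with a pseudocount of 5. The share higher in sperm than in the oocyte library was 18.5% and fell to 7.03% with that scaling. The cause of these changes was not tested. The other 39 values stayed within 1.5 times the main count or, for shares, within the 95% binomial interval. Median-of-ratios scaling, which reselects the genes, gave 128. Scaling moved the median log2 difference of all genes between the 1-cell and oocyte libraries to 0.33, against -0.30 as deposited, and 81 of the 92 stayed at most 0.1 times as high. It left 50 of the 92 higher in the 4-cell than in the 1-cell library, against 61 as deposited, and 4 of the 7 genes higher in sphere past their limit. Without replicates, differences between libraries and between stages cannot be told apart.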

Other observations

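Transcripts below the oocyte limit of 10 RPKM also included immune genes, whose share among them was not counted. Of 5594 genes at 1 to 10 RPKM in the oocyte library, 589 were at most 0.1 times as high in the 1-cell library after the same symbols had been set aside, and 494 of these had a symbol. Of the 589, 381 (64.7%) were below 1 RPKM in every library from 1-cell to sphere, where 8.94% of the 5594 were, a share that the low 1-cell value in part fixes. In sperm 440 of the 589 (74.7%) were at 1 RPKM or more, where 87.1% of the 5594 were. illr1, an immune-related lectin-like receptor gene, had no read in the 1-cell library, against 9.99 RPKM in the oocyte library, and at most 0.0558 RPKM later. The cytokine receptor gene il21r.1 had 0.0520 RPKM in the 1-cell library, against 9.09 RPKM in the oocyte library. havcr1 had no read in the 1-cell library, against 7.72 RPKM in the oocyte library. The transcription factor gene CEBPB was at 0.0349 RPKM in the 1-cell library, against 9.93 RPKM in the oocyte library, and had 44.5 RPKM in sphere, against 0.919 RPKM in the 1000-cell library. These genes were chosen after their values were seen.

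A pattern across the cleavage libraries was also found after the values had been seen. Among 73 of the 92 genes with at least 20 reads over the 6 libraries from 4-cell to 1000-cell, 15 (20.5%) had their 4-cell and 128-cell values above the other 4. The same order was found in 4.59% of the other 4312 genes, in 2.88% of all 19676 genes with as many reads, and in 5 of the 7 genes that had been set aside by symbol. The 15 included ptgdsb.1, ptgdsb.2, cd74a, cd74b, ANXA2, s100a10b, apoeb, icn2, LCP1, odf3l2a and RFTN2. Of the set-aside keratin genes, krt5 had 18.7 RPKM in the 4-cell, 8.76 in the 16-cell, 3.11 in the 64-cell, 13.7 in the 128-cell, 6.95 in the 256-cell and 3.41 in the 1000-cell library. The 4-cell and 128-cell libraries are also the deepest of the series, with 113972795 and 93744349 reads, and the part of depth or of other cells in this order was not tested.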
